A study of Mus musculus with 19 samples.

Results

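Nuclear genes for the enzymes of oxidative phosphorylation were followed in mouse liver 4 h after inhibition of endocannabinoid breakdown. The genes were chosen by a rule on their names, set with earlier results of these data known. It takes symbols that begin with Nduf, Uqcr, Atp5 or Cox4 to Cox8, together with the succinate dehydrogenase genes and Cyc1. This rule found 86 genes among the 16593 with a symbol on the array, and 78 of the 86 were bright enough to be tested, among 9346 tested genes in all. RNA came from 19 individual male Swiss-Webster mice, 7 weeks old and fasted before the experiment, with 1 single-colour Illumina MouseRef-8 v2.0 beadchip array per mouse. AM251/IDFP-treated mice (n = 5) received AM251 at 10 mg/kg shortly before IDFP at 10 mg/kg, IDFP-treated mice (n = 8) received IDFP alone at 10 mg/kg, and DMSO-treated mice (n = 6) received the vehicle in which both compounds were dissolved. IDFP, isopropyl dodecylfluorophosphonate, is an organophosphorus compound that blocks monoacylglycerol lipase and fatty acid amide hydrolase, the enzymes that break down endocannabinoids. AM251 is an antagonist of the CB1 cannabinoid receptor. No group received AM251 alone, so that effects of AM251 itself and of blocking the receptor in IDFP-treated mice cannot be told apart, and whole liver was used, in which fewer cells of a type and less RNA per cell cannot be told apart.

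The respiratory chain passes electrons from NADH through complex I, or from succinate through complex II, to coenzyme Q, then through complex III and cytochrome c to complex IV, where oxygen is reduced to water. Complexes I, III and IV pump protons across the inner mitochondrial membrane, and complex V, the ATP synthase, uses their return to make ATP. In liver this ATP pays for gluconeogenesis, urea synthesis and lipid synthesis. Most subunits are encoded in the nucleus, a few in mitochondrial DNA, and assembly factors that are not part of the finished enzymes help to put them together. The comparison of IDFP with DMSO asks what the inhibitor does to these transcripts, and the comparison of AM251/IDFP with IDFP asks how they stand when CB1 was blocked beforehand.

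The array carried 108 probes for the 86 members. Signals are given in the linear intensity units of the deposited table, in which levels of different probes are not comparable as amounts of RNA. Of the 8 members that were too dim to test, 5 are isoforms known from other tissues: Cox4i2 of lung, Cox6a2 and Cox8b of striated muscle, and Cox7b2 and Cox8c of testis. Cox6a2 exceeded the detection limit of 17.5 to 17.6 units on 2 of 19 arrays, Cox8b on 3, and the other 3 on 0. The remaining 3 are Ndufs1, the large iron-sulphur subunit of complex I, Uqcrq, a small subunit of complex III, and Uqcrfs1, the Rieske iron-sulphur protein. The probes of Ndufs1 and Uqcrq were above the limit on 0 arrays, with signals from -22.9 to -5.14 and from -18.5 to 13.5 units. Uqcrfs1 was above it on 6 arrays, with a highest signal of 53 units in mouse IDFP 3. Whether these 3 transcripts were present could not be read from their probes. Markers of muscle and brown fat, tissues rich in mitochondria, were detected on most arrays for 0 of 10 genes in every group. The defining hepatocyte markers were detected, 10 of 10 on most arrays of every group, with summed signals of 170000 to 182000 units in AM251/IDFP-treated, 167000 to 180000 units in IDFP-treated and 167000 to 176000 units in DMSO-treated mice. Bright probes carry most of this sum, so that it can hide changes of single markers. Of the 10, Hnf4a, a transcription factor of hepatocytes, averaged 9610 ± 673 units in AM251/IDFP-treated, 7090 ± 1290 units in IDFP-treated and 9540 ± 1700 units in DMSO-treated mice (SD). Hnf4a fell with IDFP (-0.43, adjusted p = 0.0237 by limma) and was 0.46 higher with AM251/IDFP than with IDFP (adjusted p = 0.0307), and Tat, tyrosine aminotransferase, was 1.60 higher with AM251/IDFP than with DMSO (adjusted p = 0.0137). Tat had -3.6 to 71.3 units in DMSO-treated mice, partly below the detection limit, so that the size of its difference is uncertain. Of the hepatocyte markers 10% were called in each comparison. Of all tested genes 16.3% were called for IDFP vs. DMSO, 10.8% for AM251/IDFP vs. IDFP and 9.88% for AM251/IDFP vs. DMSO. The part of these marker changes in the results on the members was not tested.

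IDFP left the members close to their DMSO level. With limma, 5 of 78 members passed the threshold of an adjusted p of 0.05 for IDFP vs. DMSO, which is 6.41% of them, against 16.3% of all tested genes. Of the 5, 3 were higher (Atp5l, Ndufaf4 and Uqcrc1), where 6.75% of all tested genes were higher, and 2 were lower (Ndufv1 and Ndufaf1), where 9.53% of all were lower. With only the IDFP and DMSO arrays in the fit, 4 members were higher and 0 lower, the adjusted p of Ndufv1 being 0.0573 and that of Ndufaf1 0.0539, and neither passed with no filter on dim probes (0.0806 for Ndufv1 and 0.0548 for Ndufaf1). At an unadjusted p under 0.05 there were 15 members (19.2%), against 30.8% of all tested genes. The log2 differences of the members ran from -0.34 to 0.47 with a median of 0.083, and that of all tested genes was -0.001. The difference was positive for 62 of 78 members (79.5%), compared with 49.8% of all tested genes. The arrays could measure small changes of these genes: the median standard error was 0.0933 on the log2 scale, and the 95% interval of the difference stayed within a 1.5-fold change either way for 74 of 78 members (94.9%, against 76.2% of all tested genes). The members varied less between mice of 1 group than the average gene, with a median SD of 0.163 against 0.21 for all tested genes and 0.17 for the 557 tested genes with a signal above the members' median. Among those 557 genes 13.1% passed for IDFP vs. DMSO and 51.9% had a positive difference. The 95% interval stayed within a 1.5-fold change for 85.3% of them.

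**Figure D1:**
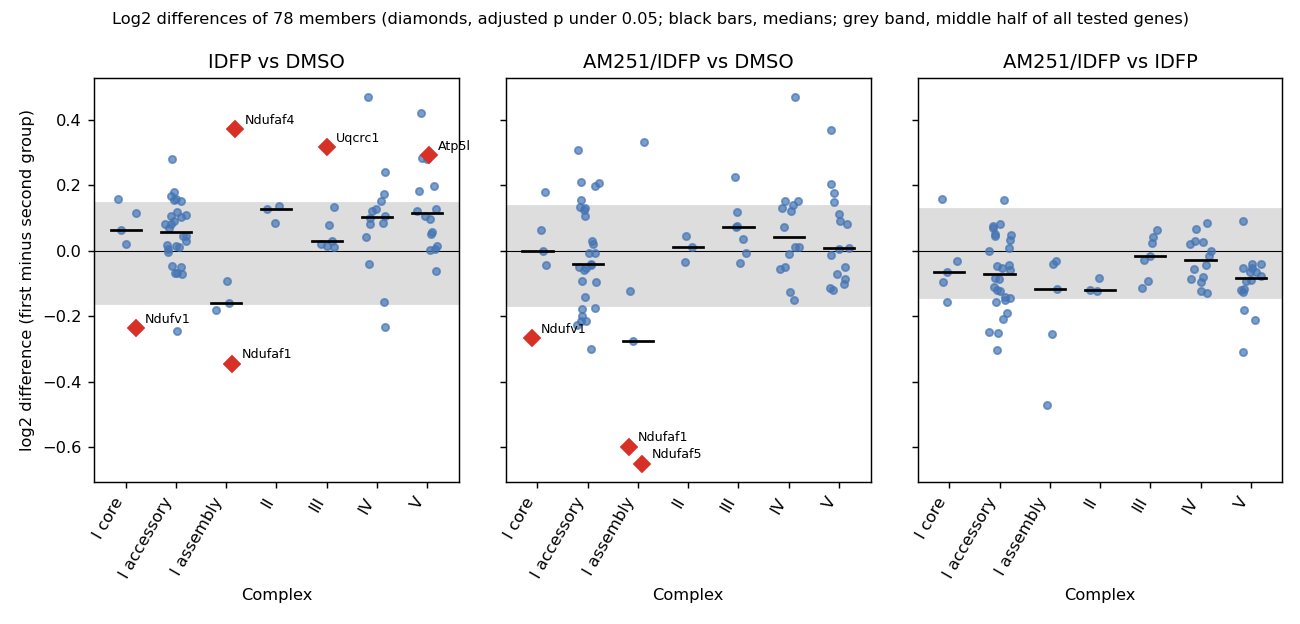
Log2 differences of the 78 tested members (y axis, first minus second group), by complex (x axis), with 1 panel for each comparison. Points are genes, red diamonds are the members with an adjusted p under 0.05, black bars are medians, and the grey band holds the middle 50% of all 9346 tested genes. In the panel of IDFP vs. DMSO, 15 of the 16 points of complex V lie above 0 and 4 of the 5 assembly factors lie below.

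Complex I oxidizes NADH. Its core subunits carry the flavin and iron-sulphur clusters and its accessory subunits surround them. Of 33 tested subunits, 1 passed for IDFP vs. DMSO (3.03%, against 16.3% of all tested genes), Ndufv1, the flavoprotein that binds NADH. Ndufv1 had 7580, 7470, 7060, 6760 and 7730 units in AM251/IDFP-treated mice. It had 6570 to 8450 units (median 7510) in IDFP-treated and 7940 to 10600 units (median 8560) in DMSO-treated mice. All 8 IDFP arrays lay below the DMSO mean, although the IDFP and DMSO ranges overlapped, and all 5 AM251/IDFP arrays lay below the lowest DMSO array. Ndufv1 fell by 0.24 on the log2 scale with IDFP (SE 0.0747, 0.849-fold, adjusted p = 0.0346 by limma). This call was lost when any of the arrays IDFP 2, 4, 5 or 8 or DMSO 3, 4 or 5 was left out, with adjusted p-values for Ndufv1 of up to 0.107. Its partner Ndufv2, an iron-sulphur protein of the same NADH-binding arm, stood at 0.06 (SE 0.0663, adjusted p = 0.571), and Ndufs8, which holds the clusters near the quinone site, at 0.16 (SE 0.0928, adjusted p = 0.266).

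Of the 28 tested accessory subunits of complex I, 0 passed for IDFP vs. DMSO, against 16.3% of all tested genes. An unadjusted p under 0.05 by limma was found for 3 of the 28 (10.7%), against 30.8% of all tested genes. Their differences ran from -0.25 to 0.28, with 21 positive. Ndufb11, a membrane-arm subunit with a dim probe, had 90.8, 120, 93.5, 86.3 and 123 units in AM251/IDFP-treated mice, 81.6 to 127 units (median 91.7) in IDFP-treated and 96.6 to 171 units (median 118) in DMSO-treated mice. The groups overlapped, and the difference for IDFP vs. DMSO was -0.25 (SE 0.1, adjusted p = 0.0969). A still dimmer probe of Ndufb11, above the detection limit on 17 arrays, gave a difference of 0.02 (unadjusted p = 0.889 by limma). The probes of Ndufb11 thus disagree. Ndufa12, an accessory subunit of the matrix arm, had 2720 to 4700 units (median 3730) in IDFP-treated and 2550 to 3300 units (median 2970) in DMSO-treated mice, a difference of 0.28 (SE 0.1171, adjusted p = 0.105). Ndufa1, a small membrane subunit, had a difference of 0.18 (SE 0.077, adjusted p = 0.116). For Ndufa1, IDFP 3 lay at the DMSO mean (8390 units against a mean of 8430) and the other IDFP arrays lay above it. The gene listed as Ndufs5-ps is named for a pseudogene copy of Ndufs5, so that its signal may come from either and its identity is uncertain.

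Of the 5 tested assembly factors of complex I, 4 had a negative difference for IDFP vs. DMSO, with a median of -0.16, and 2 passed, in opposite directions. The 2 were 40% of this small set, against 16.3% of all tested genes. Ndufaf1 belongs to the group of proteins that build the membrane arm. It had 998, 968, 1120, 979 and 1000 units in AM251/IDFP-treated mice, 925 to 1520 units (median 1220) in IDFP-treated and 1190 to 1930 units (median 1540) in DMSO-treated mice. All 5 AM251/IDFP arrays were below every DMSO array, and the IDFP arrays overlapped both groups, with IDFP 6 the lowest array of all at 925 units. Ndufaf1 fell by 0.34 with IDFP (SE 0.1064, 0.788-fold, adjusted p = 0.0304 by limma), and leaving out IDFP 1, 6 or 7 or DMSO 1, 4 or 5 lost the call for Ndufaf1 (adjusted p up to 0.0953). Ndufaf4, which acts with Ndufaf3 in building the quinone-binding part in human cells, went the other way. It had 1670, 1970, 1560, 1580 and 1960 units in AM251/IDFP-treated, 1380 to 2510 units (median 1750) in IDFP-treated and 1290 to 1540 units (median 1320) in DMSO-treated mice. IDFP 8, at 1380 units, lay at the DMSO mean of 1380 units, and the other IDFP arrays lay above it. The AM251/IDFP and DMSO ranges did not overlap. Ndufaf4 rose by 0.37 with IDFP (SE 0.1086, 1.29-fold, adjusted p = 0.0233 by limma). Without DMSO 4 or DMSO 5 the call for Ndufaf4 was lost (adjusted p up to 0.0572). Ndufaf3 itself had a difference of -0.16 (SE 0.0931, adjusted p = 0.265) and a dim probe, with 79.5 to 98.7 units in AM251/IDFP-treated, 83.3 to 113 in IDFP-treated and 87.2 to 164 in DMSO-treated mice. Ndufaf7, an arginine methyltransferase that acts on a complex I subunit in human cells, stood at -0.09 (SE 0.0993, adjusted p = 0.582).

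Complex II, succinate dehydrogenase, links the citric acid cycle to the chain. Its iron-sulphur subunit Sdhb and membrane anchors Sdhc and Sdhd were tested, and the flavoprotein Sdha was not analysed here. The 3 genes had differences of 0.08, 0.13 and 0.14 for IDFP vs. DMSO, with standard errors of 0.1028 for Sdhb, 0.0904 for Sdhc and 0.1459 for Sdhd, and 0 passed (lowest adjusted p = 0.367). Their 95% intervals were -0.13 to 0.30 for Sdhb, -0.06 to 0.32 for Sdhc and -0.17 to 0.44 for Sdhd.

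Complex III hands electrons from coenzyme Q to cytochrome c. All 7 tested members had a positive difference for IDFP vs. DMSO, and that of 6 of them lay between 0.01 and 0.13. Uqcrc1, a core protein that faces the matrix, was the 1 that passed (14.3% of the 7, near the 16.3% of all tested genes). It had 3640, 3540, 3810, 5000 and 3430 units in AM251/IDFP-treated, 3580 to 4810 units (median 3980) in IDFP-treated and 2590 to 3830 units (median 3400) in DMSO-treated mice. All IDFP arrays were above the DMSO mean, while IDFP 3 and IDFP 6 lay within the DMSO range. Uqcrc1 rose by 0.32 with IDFP (SE 0.1056, 1.25-fold, adjusted p = 0.0449 by limma). It was the call closest to the threshold and was lost for Uqcrc1 without AM251/IDFP 1 or 2, IDFP 2, 4, 5, 7 or 8 or DMSO 3, 4 or 5 (adjusted p up to 0.123). Its fellow core protein Uqcrc2 varied little, with 8010 to 8430 units in AM251/IDFP-treated, 7410 to 8370 units (median 7700) in IDFP-treated and 7190 to 8100 units (median 7750) in DMSO-treated mice. The difference of Uqcrc2 for IDFP vs. DMSO was 0.01 (SE 0.0582, 95% interval -0.11 to 0.13). Cyc1, cytochrome c1, stood at 0.13 (SE 0.0875, adjusted p = 0.32).

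Complex IV, cytochrome c oxidase, reduces oxygen. Of its 14 tested members 0 passed for IDFP vs. DMSO, and 11 (78.6%) had a positive difference, against 49.8% of all tested genes. An unadjusted p under 0.05 by limma was found for 2 of the 14 (14.3%), against 30.8% of all tested genes. The 2 were the neighbouring subunits Cox5b, with 10600 to 12600 units (median 11500) in IDFP-treated and 9400 to 12300 units (median 10100) in DMSO-treated mice, and Cox5a, with 9060 to 12300 units (median 10500) in IDFP-treated and 8370 to 10000 units (median 9360) in DMSO-treated mice. The groups overlapped for both, and the differences were 0.15 for Cox5b (SE 0.0686, adjusted p = 0.132) and 0.17 for Cox5a (SE 0.0792, adjusted p = 0.139). Cox4i1, the subunit at which ATP regulates the enzyme, stood at -0.04 (SE 0.0716, 95% interval -0.19 to 0.11). Of the isoforms of other tissues, Cox6b2 and Cox7a1 were bright enough to be tested. Cox6b2, an isoform of testis, stayed between 7.37 and 56.2 units on all arrays. Cox7a1, the isoform of heart and skeletal muscle, had 84.2, 66.9, 86.9, 130 and 60.5 units in AM251/IDFP-treated, 24.6 to 444 units (median 66.5) in IDFP-treated and 45 to 55.2 units (median 47) in DMSO-treated mice. The highest value came from the single array IDFP 4, the next being 112 units in IDFP 8, and the difference for IDFP vs. DMSO was 0.47 (SE 0.289, adjusted p = 0.288), which made Cox7a1 the least precise member. Without IDFP 4 the difference of Cox7a1 was 0.19 (adjusted p = 0.462). IDFP 4 also stood apart in part of the stellate cell list, with the contractile cell markers Acta2 and Des picked after their values were seen. Acta2, smooth muscle actin, had 7890 units on IDFP 4 and 156 to 423 units on the other 7 IDFP arrays. Des, desmin, had 535 units on IDFP 4 and 26.3 to 40.7 units on the others. Col1a1 (112 units) and Col3a1 (969 units) were also highest on IDFP 4 among the IDFP arrays. Lrat, Dcn, Reln, Pdgfrb, Rgs5 and Hand2 of the same list lay within the range of the other IDFP arrays. The part of contractile cells in the value of Cox7a1 was not tested.

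Complex V makes ATP on a rotor driven by protons. Of its 16 tested members 15 (93.8%) were positive for IDFP vs. DMSO, against 49.8% of all tested genes, with a median of 0.12 and a range of -0.06 to 0.42. An unadjusted p under 0.05 by limma was found for 6 of them (37.5%), near the 30.8% of all tested genes. Atp5l, subunit g of the membrane part, was the 1 that passed (6.25% of the 16, against 16.3% of all tested genes). It had 2780, 2840, 2970, 3090 and 2660 units in AM251/IDFP-treated, 2720 to 3470 units (median 3150) in IDFP-treated and 2200 to 2900 units (median 2500) in DMSO-treated mice. The ranges overlapped only through IDFP 1 and IDFP 6, which lay below the highest DMSO array. Atp5l rose by 0.29 with IDFP (SE 0.0776, 1.22-fold, adjusted p = 0.0132 by limma), the smallest adjusted p of a member in this comparison, and the call for Atp5l held when each array was left out in turn (adjusted p up to 0.0439) but not when IDFP 2, IDFP 3 and DMSO 3 were left out together (adjusted p of Atp5l 0.0845). Atp5d, the delta subunit of the rotor stalk, had 3200, 3290, 3780, 4760 and 2900 units in AM251/IDFP-treated, 3380 to 4670 units (median 3610) in IDFP-treated and 2750 to 3320 units (median 3150) in DMSO-treated mice. The IDFP and DMSO ranges of Atp5d did not overlap, and its difference of 0.28 (SE 0.1025) had an adjusted p of 0.0626. Atp5j, coupling factor 6 of the stator, had 9100 to 12800 units (median 10800) in IDFP-treated and 6210 to 10400 units (median 8940) in DMSO-treated mice, a difference of 0.28 (SE 0.1134, adjusted p = 0.0959). Of the catalytic subunits, Atp5b, the beta subunit, stood at 0.06 (SE 0.0724) and Atp5a1, the alpha subunit, at 0.10 (SE 0.1586).

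**Figure D2:**
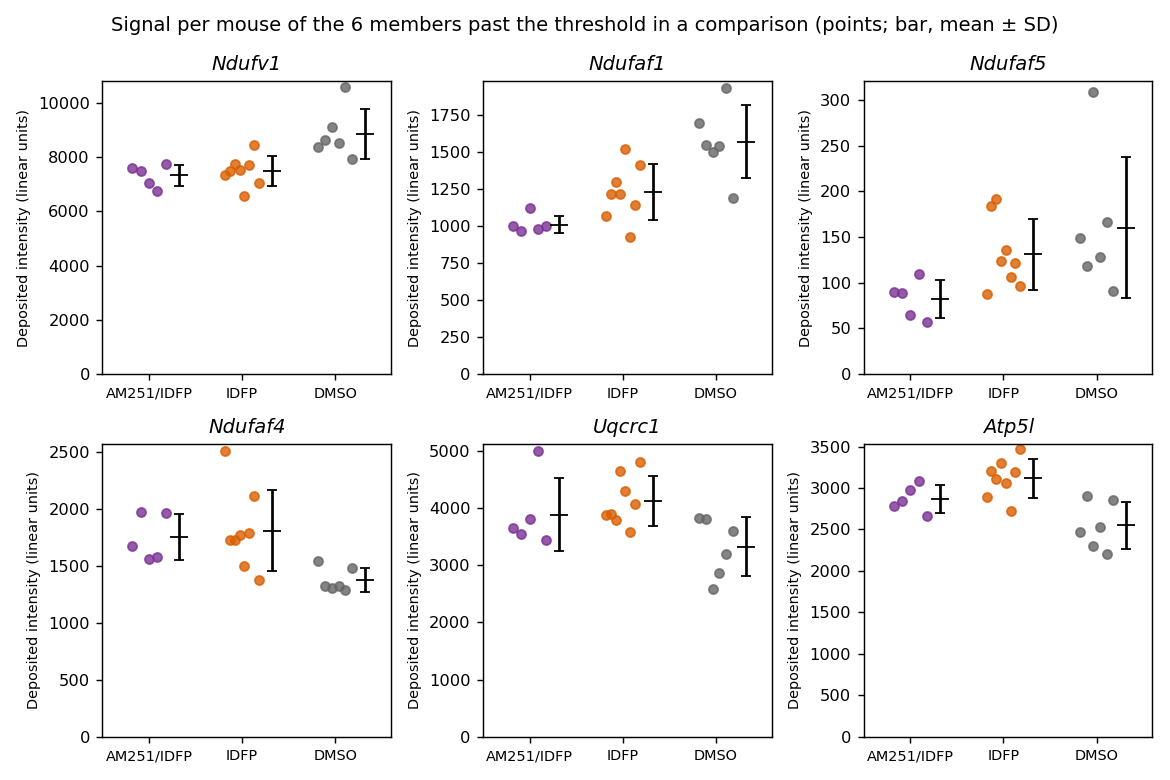
Deposited intensity (y axis, linear units from 0) of the 6 members that passed in a comparison, by treatment (x axis). Each point is a mouse, and the bar beside it gives the mean ± SD (n = 5, 8 and 6). All AM251/IDFP points of Ndufaf1 and Ndufv1 lie below the DMSO points, and the 308 units of Ndufaf5 on DMSO 3 stand above all its other values.

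In the comparison of AM251/IDFP with IDFP, 0 of 78 members passed, against 10.8% of all tested genes (5.97% higher and 4.85% lower). At an unadjusted p under 0.05 by limma there were 5 members (6.41%), against 24% of all tested genes. The differences of the members had a median of -0.0645 and ran from -0.47 to 0.16, with 20 positive (25.6%) and 58 negative. Of all tested genes 47.6% were positive, with a median of -0.0124. Of the 557 tested genes with a signal above the members' median, 39% were positive, with a median of -0.041. This comparison and that of IDFP with DMSO share the IDFP arrays, so that a high or low IDFP array moves them in opposite directions. The smallest adjusted p was that of Ndufv3, an accessory subunit beside Ndufv1, which had 4400, 4250, 4800, 3900 and 4280 units in AM251/IDFP-treated, 4600 to 5260 units (median 4920) in IDFP-treated and 4580 to 5140 units (median 4930) in DMSO-treated mice. All AM251/IDFP arrays lay below the IDFP mean, the ranges overlapped through AM251/IDFP 3, and the difference was -0.19 (SE 0.0674, adjusted p = 0.077). Ndufb10, an accessory subunit of the membrane arm, had 1650, 1470, 1720, 1770 and 1730 units in AM251/IDFP-treated, 1750 to 2410 units (median 2020) in IDFP-treated and 1790 to 2590 units (median 1890) in DMSO-treated mice, with a difference of -0.25 (SE 0.1026, adjusted p = 0.132). For the members that passed with IDFP, the differences of AM251/IDFP from IDFP were -0.12 for Atp5l (SE 0.0819), -0.04 for Ndufaf4 (SE 0.1146), -0.09 for Uqcrc1 (SE 0.1115), -0.25 for Ndufaf1 (SE 0.1123) and -0.03 for Ndufv1 (SE 0.0789). The 95% interval stayed within a 1.5-fold change for 71 of 78 members (91%, against 77.2% of all tested genes and 87.4% of the 557 with a signal above the members' median).

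AM251/IDFP-treated mice differed from DMSO-treated mice in 3 of 78 members (3.85%), against 9.88% of all tested genes. All 3 were lower, where 6.22% of all tested genes were lower, and 0 were higher, where 3.66% of all were. There were 12 members with an unadjusted p under 0.05 by limma (15.4%), against 24.6% of all tested genes. With only these 2 groups in the fit, 1 member was higher, Cox7a1 (0.47, adjusted p = 0.0444), and 1 lower, Ndufaf1. Positive and negative differences were 39 each, with a median of 0.0023. Ndufaf1 fell by 0.60 (SE 0.1193, 0.661-fold, adjusted p = 0.0053 by limma), and its call held when each array was left out in turn (adjusted p up to 0.0162). Ndufv1 fell by 0.27 (SE 0.0838, 0.831-fold, adjusted p = 0.0469), a call for Ndufv1 that was lost on leaving out any AM251/IDFP array, IDFP 1, 2, 3, 4 or 6 or DMSO 2, 3, 4 or 5 (adjusted p up to 0.116). Ndufaf5, which hydroxylates a complex I subunit in human cells, fell by 0.65 (SE 0.2, 0.637-fold, adjusted p = 0.0438). It had 90.3, 88.9, 64.5, 109 and 57.4 units in AM251/IDFP-treated, 87.9 to 192 units (median 123) in IDFP-treated and 91.2 to 308 units (median 139) in DMSO-treated mice. DMSO 3 was the array at 308 units, and the AM251/IDFP and DMSO ranges overlapped. A further probe of Ndufaf5 of similar brightness, with 69.6 to 178 units, gave a difference of -0.09 (unadjusted p = 0.521) for AM251/IDFP vs. DMSO, so that the probes of Ndufaf5 disagree. The call for Ndufaf5 was lost on leaving out AM251/IDFP 1, 2, 3 or 5, IDFP 2, 3, 4, 5 or 7 or DMSO 1, 3, 4 or 5. Where leaving out an array made the further probe the brighter one, the adjusted p of Ndufaf5 reached 0.804.

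By mouse, the members shifted by little. Each array was given the median, over the 78 members, of the log2 difference from the DMSO mean. This median was -0.08, -0.01, 0.0048, 0.03 and 0.12 in AM251/IDFP-treated mice in rising order. It was -0.07 to 0.17 (median 0.08) in IDFP-treated and -0.04 to 0.03 (median -0.0072) in DMSO-treated mice. The 3 groups overlapped, IDFP 6 being the lowest and IDFP 8 the highest of the IDFP arrays. Over all tested genes the same median stayed between -0.04 and 0.01 on every array. The number of members above their DMSO mean was 24 to 61 (median 40) in AM251/IDFP-treated, 23 to 58 (median 52.5) in IDFP-treated and 29 to 46 (median 34.5) in DMSO-treated mice. For complex V the array medians were -0.07 to 0.15 (median 0.0095) in AM251/IDFP-treated, -0.0066 to 0.25 (median 0.16) in IDFP-treated and -0.08 to 0.06 (median -0.0027) in DMSO-treated mice. For the 5 assembly factors they were -0.35 to -0.21 (median -0.33) in AM251/IDFP-treated, -0.23 to -0.0069 (median -0.12) in IDFP-treated and -0.19 to 0.14 (median -0.05) in DMSO-treated mice. The AM251/IDFP arrays thus lay below every DMSO array, by a narrow gap (-0.2132 to -0.1871). Such a median hides single genes: Ndufaf4 was higher with AM251/IDFP than with DMSO, by 0.33. The probes of Ndufaf5 disagree (-0.65 and -0.09). For these 5 genes no test of the group was made.

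**Figure D3:**
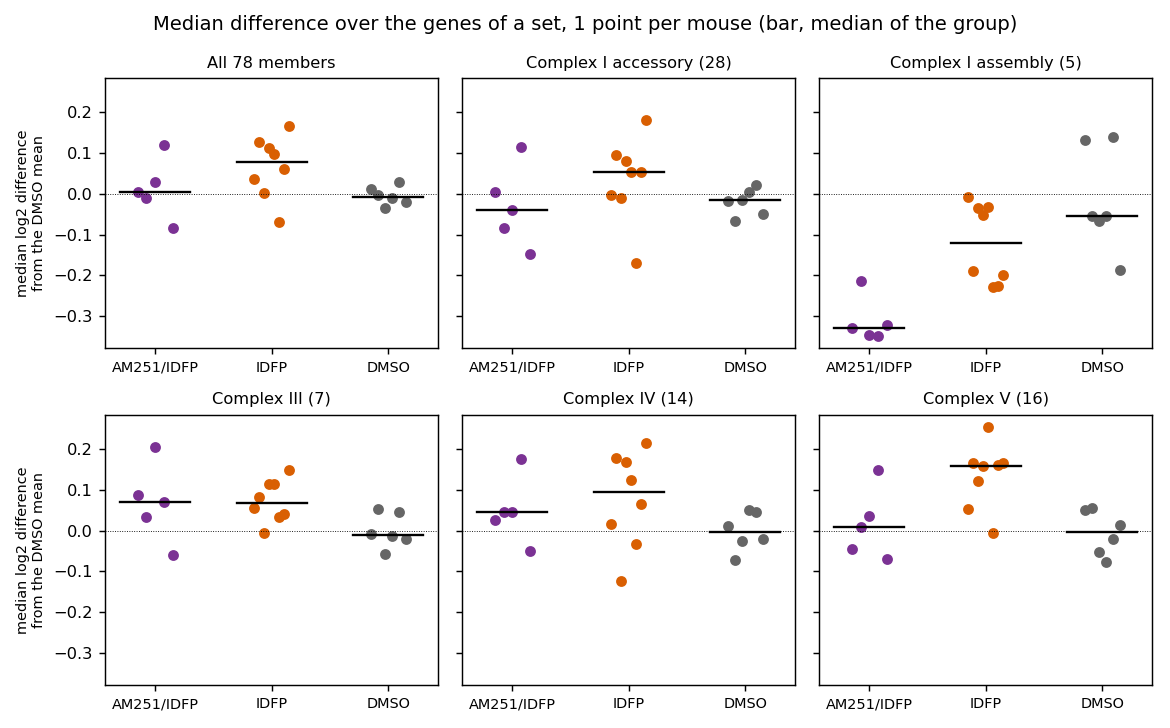
Median log2 difference from the DMSO mean (y axis) over the members of a set, by treatment (x axis), with 1 point per mouse and a bar at the median of the group. Over all 78 members the 3 groups overlap, from -0.08 to 0.12 for AM251/IDFP, -0.07 to 0.17 for IDFP and -0.04 to 0.03 for DMSO. The assembly factors of complex I are the set in which no AM251/IDFP point reaches the DMSO points. The gap is narrow (-0.2132 to -0.1871), and 1 of the 5 genes, Ndufaf4, was higher with AM251/IDFP than with DMSO.

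Mice of 1 group differed from each other in a subset of the members that varied together. After each group's mean was removed, the second principal component held 23.3% of the variance of the 78 members. The main axis of variation (the first principal component) held 38%. A group of 10 members followed this axis with a correlation over 0.8 across the 19 arrays, which is a description of genes chosen after their values were seen: Atp5a1, Atp5e and Atp5k of complex V, Ndufb2, Ndufb4, Ndufb5 and Ndufb9 of the membrane arm of complex I, Cox7b, Sdhd and the assembly factor Ndufaf5. On IDFP 2, IDFP 3 and DMSO 3 the 10 genes stood on average 0.50, 0.50 and 0.61 above their group means. On IDFP 6 and DMSO 2 they stood 0.37 and 0.39 below. The SDs of the 10 genes within groups ran from 0.26 (Ndufb2) to 0.4544 (Ndufb4), against a median of 0.163 for the members. The 10 are thus among the most variable members. Cox7b, a small membrane subunit of complex IV, shows the size of this spread. Cox7b had 528, 715, 617, 1090 and 458 units in AM251/IDFP-treated mice, 520 to 1240 units (median 589) in IDFP-treated and 379 to 895 units (median 619) in DMSO-treated mice, where DMSO 2 was lowest and DMSO 3 highest. Atp5a1 had 8430 units on DMSO 3 and 4090 units on DMSO 2, within 1 group. The corresponding axis of the other tested genes held 14.2% of their variance, but over far more genes, so that this share cannot be compared with the 38% of the members. On that axis the highest arrays were AM251/IDFP 3, DMSO 5 and DMSO 3 and the lowest was DMSO 1. High values on IDFP 2, IDFP 3 and DMSO 3 were also found outside the members, in genes picked after their values were seen. Cycs, cytochrome c, which lies outside the name rule, had 578, 701 and 788 units on IDFP 2, IDFP 3 and DMSO 3, against 254 to 547 units on the other arrays. Dld, a subunit of the pyruvate dehydrogenase complex, had 1370, 1740 and 1340 units on the same arrays. Its other arrays had 745 to 1430 units, with 1430 on AM251/IDFP 4. Higd1a, a small inner membrane protein, had 94.6, 108 and 138 units on the 3 arrays. Its other arrays had 17 to 107 units, with 107 on DMSO 5, so that Dld and Higd1a did not set the 3 arrays fully apart. Chip and position of the arrays could not be tied to single mice, so that their part in this variation was not tested. When IDFP 2, IDFP 3 and DMSO 3 were left out together, a choice made after the pattern was seen, the median difference was 0.0801 for IDFP vs. DMSO and 57 of 78 were positive, but 0 members passed for that comparison and 1, Ndufaf1, for AM251/IDFP vs. DMSO (adjusted p = 0.0227). Of all genes tested, 9.34% and 3.15% passed in these comparisons without the 3 arrays.

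**Figure D4:**
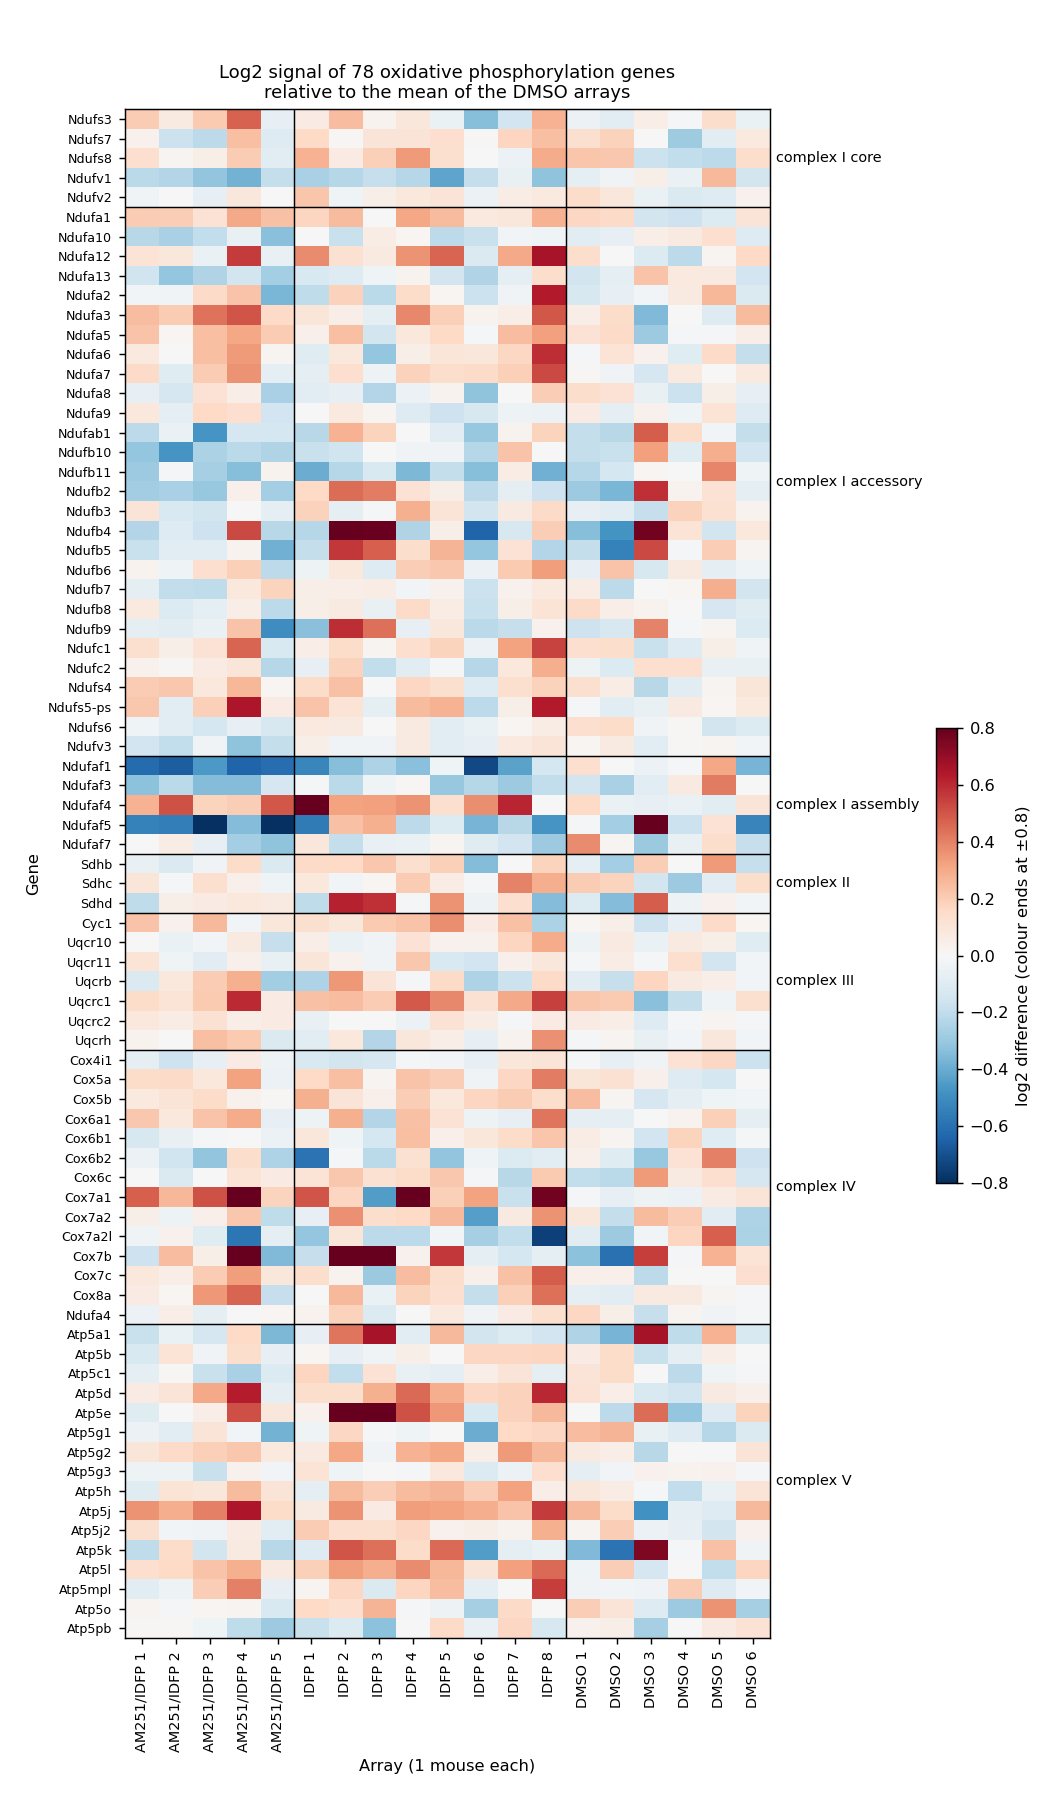
Log2 signal of each of the 78 tested members (y axis, grouped by complex) on each of the 19 arrays (x axis, by treatment), relative to the mean of the DMSO arrays. Red is higher and blue lower, and the colour ends at ±0.8. The 10 genes that vary together appear as red cells on IDFP 2, IDFP 3 and DMSO 3, as for Cox7b with 1070, 1240 and 895 units, while Ndufaf1 is blue on all 5 AM251/IDFP arrays.

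The promoters of the members that passed are shown because nuclear respiratory genes are known for sites of the transcription factors NRF1, ETS family proteins such as GABPA, YY1 and the estrogen-related receptors, through which the PGC-1 coactivators act. RefSeq promoter windows of 300 bases (250 before and 50 after the transcription start, build GRCm38.p6) held 70 of the 86 members, in 75 windows. Both strands were searched for GCGCANGCG (NRF1 core), CCGGAAG (ETS core), AAGATGGC (YY1 core) and TNAAGGTCA (estrogen-related receptor core). At least 1 of them was present in 52% of the member windows, against 29.3% of the windows of all tested genes and 17.1% of all windows of the table. The NRF1 core was in 26.7% of member windows, 12.3% of those of tested genes and 6.25% of all. The ETS core was in 22.7%, 16.3% and 8.86%, the YY1 core in 13.3%, 4.21% and 2.75%, and the estrogen-related receptor core in 4%, 0.858% and 1.28% of the same windows. These shares are descriptions, and a match is not a bound site. In the sequences below, each 5′ to 3′ on the strand of its gene, capitals mark the matches.
The 3 members that rose with IDFP were Atp5l (chr9:44920693-44920992, minus strand), Ndufaf4 (chr4:24897833-24898132, plus strand) and Uqcrc1 (chr9:108936398-108936697, plus strand):
Atp5l: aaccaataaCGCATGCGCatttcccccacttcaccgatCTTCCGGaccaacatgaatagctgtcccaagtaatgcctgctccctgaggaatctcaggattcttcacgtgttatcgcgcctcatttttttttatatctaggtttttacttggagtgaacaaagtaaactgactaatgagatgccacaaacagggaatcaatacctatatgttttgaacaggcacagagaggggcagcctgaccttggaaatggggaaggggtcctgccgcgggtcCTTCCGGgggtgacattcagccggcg
Ndufaf4: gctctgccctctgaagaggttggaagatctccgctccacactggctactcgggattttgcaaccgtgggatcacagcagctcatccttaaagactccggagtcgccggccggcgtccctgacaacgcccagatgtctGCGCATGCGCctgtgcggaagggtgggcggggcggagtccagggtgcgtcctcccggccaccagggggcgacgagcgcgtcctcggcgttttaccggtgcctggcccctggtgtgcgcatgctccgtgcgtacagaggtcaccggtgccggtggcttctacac
Uqcrc1: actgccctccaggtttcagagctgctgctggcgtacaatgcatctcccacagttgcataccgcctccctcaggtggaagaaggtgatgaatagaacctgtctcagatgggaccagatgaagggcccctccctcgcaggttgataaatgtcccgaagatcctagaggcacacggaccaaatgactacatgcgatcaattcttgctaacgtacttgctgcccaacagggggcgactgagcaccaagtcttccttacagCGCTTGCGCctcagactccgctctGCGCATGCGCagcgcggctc
Those that fell in a comparison were Ndufv1 (chr19:4012706-4013005, minus strand), Ndufaf1 (chr2:119662785-119663084, minus strand) and Ndufaf5 (chr2:140170396-140170695, plus strand):
Ndufv1: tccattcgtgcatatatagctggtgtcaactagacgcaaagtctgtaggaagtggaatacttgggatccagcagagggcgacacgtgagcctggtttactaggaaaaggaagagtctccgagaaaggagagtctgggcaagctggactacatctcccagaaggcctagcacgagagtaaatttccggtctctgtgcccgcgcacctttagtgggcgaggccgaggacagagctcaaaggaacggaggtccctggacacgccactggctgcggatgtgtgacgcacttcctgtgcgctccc
Ndufaf1: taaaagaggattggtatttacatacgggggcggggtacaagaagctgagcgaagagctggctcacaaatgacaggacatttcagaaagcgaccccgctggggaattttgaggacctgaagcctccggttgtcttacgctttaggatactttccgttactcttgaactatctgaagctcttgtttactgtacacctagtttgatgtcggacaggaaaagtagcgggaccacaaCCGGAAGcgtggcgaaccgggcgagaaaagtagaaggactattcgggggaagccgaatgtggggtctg
Ndufaf5: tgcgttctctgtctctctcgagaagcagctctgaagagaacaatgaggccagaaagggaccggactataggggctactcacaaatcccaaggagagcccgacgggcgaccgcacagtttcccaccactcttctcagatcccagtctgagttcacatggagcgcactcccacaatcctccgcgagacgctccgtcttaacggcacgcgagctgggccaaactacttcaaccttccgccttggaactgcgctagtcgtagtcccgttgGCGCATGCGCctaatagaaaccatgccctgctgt
Atp5l had an NRF1 core and a pair of ETS cores, Ndufaf4 had an NRF1 core, and Uqcrc1 had NRF1 cores just after the start. Ndufaf5 also had an NRF1 core and Ndufaf1 an ETS core, while the window of Ndufv1 held none of the 4. The NRF1 core in its palindromic form matches on both strands in overlapping positions, as in Ndufaf4, Ndufaf5 and Uqcrc1, and was then counted as 1 window with a match. NRF1 cores were thus present both among the members that rose and in 1 that fell.

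Genes that build or supply the respiratory chain were described from lists of the pathway. Among 32 tested assembly factors with names outside the rule, 2 were higher and 5 lower for IDFP vs. DMSO (median 0.0041), 2 higher and 1 lower for AM251/IDFP vs. IDFP, and 0 higher and 4 lower for AM251/IDFP vs. DMSO. Called either way were 21.9%, 9.38% and 12.5% of the list in these comparisons, against 16.3%, 10.8% and 9.88% of all tested genes, so that the shares lay near those of all genes. Coa7 and Coa4, mitochondrial proteins needed to build complex IV, had the smallest adjusted p of the list for IDFP vs. DMSO. Coa7 had 96.4, 101, 78.8, 59.7 and 101 units in AM251/IDFP-treated, 30 to 74.5 units (median 48.1) in IDFP-treated and 118 to 201 units (median 142) in DMSO-treated mice. The IDFP and DMSO ranges of Coa7 did not overlap, and the AM251/IDFP arrays lay between, meeting the IDFP range at 1 end. Coa7 fell by 1.07 with IDFP (SE 0.116, adjusted p = 6.32e-06 by limma), was higher by 0.50 with AM251/IDFP than with IDFP (SE 0.1225, adjusted p = 0.0117) and fell by 0.57 for AM251/IDFP vs. DMSO (SE 0.1301, adjusted p = 0.0111). Coa4 had 429, 241, 320, 336 and 285 units in AM251/IDFP-treated, 178 to 333 units (median 208) in IDFP-treated and 373 to 665 units (median 484) in DMSO-treated mice, and fell by 1.05 with IDFP (SE 0.1404, adjusted p = 4.35e-05). Coa4 was 0.48 higher with AM251/IDFP than with IDFP (SE 0.1483, adjusted p = 0.0417), a call that was lost without AM251/IDFP 1, 3 or 4 or any of IDFP 2 to IDFP 8, and fell by 0.57 for AM251/IDFP vs. DMSO (SE 0.1575, adjusted p = 0.0257), a call lost without AM251/IDFP 2, 3 or 5 or DMSO 3, 4 or 5. Uqcc1 (-0.52, SE 0.1223, adjusted p = 0.0063) and Bcs1l (-0.28, SE 0.0752, adjusted p = 0.015), which help to build complex III, also fell with IDFP, and Uqcc1 lost its call with the mean over its detected probes. Without IDFP 2, IDFP 3 and DMSO 3 together neither Uqcc1 nor Bcs1l passed (adjusted p of Bcs1l 0.0622). Ecsit, a partner of Ndufaf1 in complex I assembly, fell by 0.45 for AM251/IDFP vs. DMSO (SE 0.1065, adjusted p = 0.0134), a call for Ecsit that was lost with only the 2 groups in the fit (adjusted p = 0.0541) and without those 3 arrays (adjusted p = 0.0576).

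Coenzyme Q carries electrons from complexes I and II to complex III. Of 15 tested carriers and enzymes of coenzyme Q synthesis, 1 was higher and 2 lower for IDFP vs. DMSO, 1 higher and 1 lower for AM251/IDFP vs. IDFP, and 2 higher and 2 lower for AM251/IDFP vs. DMSO. These were 20%, 13.3% and 26.7% of the list, against 16.3%, 10.8% and 9.88% of all tested genes, and for the first 2 comparisons the shares lay near those of all genes. Coq5, a methyltransferase of the pathway, had 1360 to 1830 units in AM251/IDFP-treated, 1440 to 2040 units (median 1790) in IDFP-treated and 2120 to 2990 units (median 2540) in DMSO-treated mice. Neither treated group overlapped DMSO, and Coq5 fell by 0.51 with IDFP (SE 0.0996, adjusted p = 0.00144) and by 0.60 with AM251/IDFP (SE 0.1116, adjusted p = 0.0036), calls that were lost with the mean over its detected probes. Coq8a, an atypical kinase of the pathway, was dim, with 32.1 to 51.8 units in AM251/IDFP-treated, 54 to 107 units (median 75.8) in IDFP-treated and 37 to 70.8 units (median 43.8) in DMSO-treated mice. Coq8a rose by 0.40 with IDFP (SE 0.1008, adjusted p = 0.00975) and was lower with AM251/IDFP than with IDFP, by -0.50 (SE 0.1064, adjusted p = 0.00439).

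The citric acid cycle and pyruvate dehydrogenase, which supply the NADH, had 4 of 15 tested genes higher and 0 lower for IDFP vs. DMSO (median 0.17), 1 higher for AM251/IDFP vs. IDFP and 3 higher for AM251/IDFP vs. DMSO. Of all tested genes, 6.75% were higher and 9.53% lower for IDFP vs. DMSO, 5.97% and 4.85% for AM251/IDFP vs. IDFP, and 3.66% and 6.22% for AM251/IDFP vs. DMSO. Cs, citrate synthase, had 755, 1030, 966, 968 and 991 units in AM251/IDFP-treated, 938 to 1130 units (median 1060) in IDFP-treated and 650 to 815 units (median 770) in DMSO-treated mice. No IDFP array of Cs overlapped DMSO, and Cs rose by 0.46 (SE 0.0773, adjusted p = 0.000341 by limma). The others that rose with IDFP were Dlat (0.40), Mdh2 (0.26) and Pdha1 (0.22), with adjusted p-values of 0.0178, 0.0262 and 0.0402. The call for Mdh2 was lost without DMSO 2, 4 or 5, and that for Pdha1 without IDFP 1, 2, 5 or 7 or DMSO 2, 3, 4 or 5. Dlat did not pass when IDFP 2, IDFP 3 and DMSO 3 were left out together (adjusted p = 0.0689). Fh1, fumarase, had 6400, 5140, 4970, 6050 and 6160 units in AM251/IDFP-treated, 3300 to 4450 units (median 3470) in IDFP-treated and 2290 to 4100 units (median 3060) in DMSO-treated mice. The AM251/IDFP arrays of Fh1 were above all others, and Fh1 was 0.66 higher with AM251/IDFP than with IDFP (SE 0.1156, adjusted p = 0.00103) and 0.86 higher than with DMSO (SE 0.1228, adjusted p = 0.000572).

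Of 15 tested regulators of respiratory genes, 3 were higher and 3 lower for IDFP vs. DMSO, 1 higher and 1 lower for AM251/IDFP vs. IDFP, and 1 higher and 2 lower for AM251/IDFP vs. DMSO. These were 40%, 13.3% and 20% of the list, against 16.3%, 10.8% and 9.88% of all tested genes. Ppargc1b, a coactivator of mitochondrial genes, had 143, 137, 71.6, 270 and 300 units in AM251/IDFP-treated, 272 to 757 units (median 619) in IDFP-treated and 18.6 to 154 units (median 85) in DMSO-treated mice. Every IDFP array of Ppargc1b was above every DMSO array, while the AM251/IDFP arrays reached into both ranges. Ppargc1b rose by 2.31 with IDFP (SE 0.2696, adjusted p = 1.26e-05 by limma) and was lower with AM251/IDFP than with IDFP, by -1.51 (SE 0.2846, adjusted p = 0.00179). Its relative Ppargc1a had 73.6 to 191 units in AM251/IDFP-treated, 77.1 to 245 units (median 148) in IDFP-treated and 33.4 to 124 units (median 50.7) in DMSO-treated mice, and Ppargc1a rose by 0.90 with IDFP (SE 0.205, adjusted p = 0.00481), a call that was lost when IDFP 2, IDFP 3 and DMSO 3 were left out together. The regulators that fell with IDFP were Mterf3, a regulator of mitochondrial transcription and ribosome assembly (-0.64, SE 0.0838, adjusted p = 3.88e-05), Tfb1m, which methylates mitochondrial ribosomal RNA (-0.60, SE 0.1382, adjusted p = 0.00541), and Polrmt, the mitochondrial RNA polymerase (-0.25, SE 0.0804, adjusted p = 0.0401). The call for Polrmt was lost without IDFP 2, 3, 4, 5, 6 or 8 or DMSO 2, 3, 4 or 5. Mterf3 had 1110 to 1380 units in AM251/IDFP-treated, 729 to 938 units (median 814) in IDFP-treated and 1060 to 1520 units (median 1300) in DMSO-treated mice, and no IDFP array overlapped another group. None of the 8 tested genes of ATP export, inhibition and uncoupling passed in any comparison, and 0 of the 13 mitochondrially encoded subunits was named on the array.

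**Figure D5:**
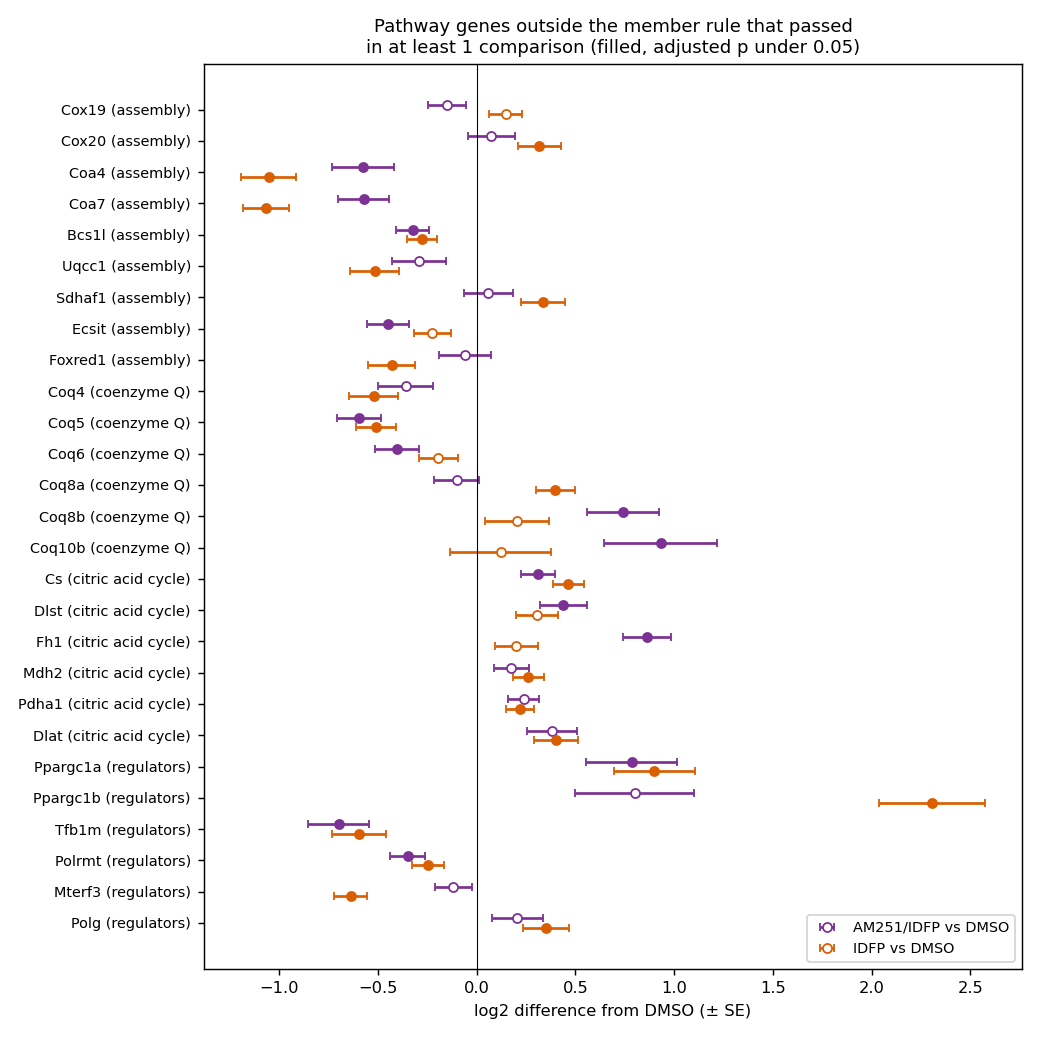
Log2 difference from DMSO (x axis, ± SE) of the pathway genes outside the member rule that passed in at least 1 comparison (y axis, with the list in parentheses), for AM251/IDFP (purple) and IDFP (orange). Filled points have an adjusted p under 0.05. With IDFP, Ppargc1b stands at 2.31, Coa7 at -1.07 and Coa4 at -1.05.

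Markers of other liver cells were set beside these groups. The summed signal of 9 neutrophil markers was 1140 to 6750 units (median 1460) in AM251/IDFP-treated, 717 to 1440 units (median 909) in IDFP-treated and 418 to 1250 units (median 642) in DMSO-treated mice, with the highest sum and 4070 units of S100a8 on AM251/IDFP 3. S100a8, S100a9 and Retnlg rose for AM251/IDFP vs. DMSO (1.46, 1.36 and 1.37, adjusted p-values of 0.0156, 0.0234 and 0.0036), and their part in the lower values of Ndufaf1 was not tested. Ndufaf1 had 1120 units on AM251/IDFP 3 and 968 to 1000 units on the other 4 arrays of the group. The sum of 9 Kupffer cell markers was 4190 to 6210 units in AM251/IDFP-treated, 4750 to 7210 units in IDFP-treated and 4930 to 6550 units in DMSO-treated mice. For AM251/IDFP vs. IDFP 2 of 8 tested Kupffer markers (25%) were lower, where 4.85% of all tested genes were lower. They were Clec4f (-0.42, adjusted p = 0.0466 by limma) and Timd4 (-0.42, adjusted p = 0.0327). The list median was -0.13. Marco averaged 220 units with AM251/IDFP against 117 with IDFP, and C1qb 781 against 772 units, while the other tested Kupffer markers had lower means with AM251/IDFP. Of 9 tested endothelial markers, Lyve1 was higher for AM251/IDFP vs. IDFP (0.69, adjusted p = 0.046 by limma), where the list median was -0.08. Ehd3 was higher (0.37, adjusted p = 0.0304) and Clec4g lower (-0.36, adjusted p = 0.0275) for IDFP vs. DMSO, with a list median of 0.08. Clec4g was lower for AM251/IDFP vs. DMSO (-0.43, adjusted p = 0.0303), with a list median of 0.06. These calls were 11.1%, 22.2% and 11.1% of the list, near the 10.8%, 16.3% and 9.88% of all tested genes. Of 10 stellate cell markers, 1 (10%) passed for AM251/IDFP vs. IDFP, near the 10.8% of all tested genes, with a list median of -0.09. The marker was Lrat, which was lower (-0.91, adjusted p = 0.0154 by limma). All 5 AM251/IDFP arrays of Lrat, at -21.3 to 16.4 units, lay below the detection limit of 17.5 units. In IDFP-treated mice Lrat had 5.27 to 64.6 units. The size of the Lrat difference is therefore uncertain. The part of these cells in the results on the members was not tested.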

How the data were processed

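Liver RNA of 19 mice was labelled and hybridized to Illumina MouseRef-8 v2.0 arrays, and each array is a separate mouse. The authors quantile normalized and background subtracted the deposited intensities in BeadStudio 3.2, per the methods and the submitters' processing notes, so that the values are on a linear scale and 30.1% of them lie below 0. A further table of 38 columns (19 arrays on 4 chips), named by chip, could not be tied to mice and was not used. Probes were named from the platform annotation: 23978 of 25697 had a gene and 1719 none, and 23962 matched a RefSeq table of GRCm38.p6, which changed the symbol of 0 members. A probe was called detected above 1.64 times the SD of the background, taken from the values below 0. Genes entered the test if a probe was detected on more than 50% of the arrays in any of the 3 groups, and the brightest such probe stood for the gene (16 members had several probes). Values were corrected with normexp (offset 16, over all probes of the table), quantile normalized and put on the log2 scale from the deposited intensities, and a linear model with AM251/IDFP, IDFP and DMSO as its terms was fitted (limma 3.58.1, R 4.3.3, moderated by eBayes). P-values were adjusted over 9346 genes by the Benjamini-Hochberg method, with a threshold of 0.05. Fold changes include the offset and understate changes of dim genes. The number of arrays limits the precision. Correlations between arrays lay between 0.953 and 0.992 and 0 pairs were identical.

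The members, the gene lists and the rule for named genes were chosen with earlier results of these data known. The text draws its named genes from every member past the threshold, for each complex the members with the 2 smallest and the largest p for IDFP vs. DMSO and for AM251/IDFP vs. IDFP, core subunits, tissue isoforms, and up to 4 genes past the threshold per pathway list and comparison by the smallest p. Members outside this rule that are named (the genes that varied together, and partners of named members) were picked with their values in view. The fit was tested on simulated data. Alternatives were the offset, a floor of 10, median scaling, the filter, the probe rule, eBayes options, array weights, 2 groups only, the replicate block, a threshold of 0.01 and each array left out, and 1 alternative was added after the data were seen. Figures were drawn with Python and matplotlib.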

Additional observations from a re-analysis of the deposited data

Results flagged for a closer look

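Of 96 groups of arrays (32 named members in 3 groups), 8 held an array far from the others of its group, where chance gives about 1 in 20. The gap to the nearest array was tested against the range of the group. Ndufaf1 was highest on AM251/IDFP 3, with 1120 units against 1000 for the next. Uqcrc1 was highest on AM251/IDFP 4, with 5000 units against 3810. Ndufc2 was lowest on AM251/IDFP 5, with 3120 units against 3690. Sdhd was lowest on AM251/IDFP 1, with 1830 units against 2180. Cox7a1 was highest on IDFP 4, with 444 units against 112. On IDFP 6 Sdhb was lowest, with 2500 units against 3180, and Atp5g1 was lowest, with 5720 units against 7370. Atp5mpl was highest on DMSO 4, with 12400 units against 10600.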

How the results depend on the processing

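Among the 12 alternatives other than leaving out single arrays, the number of members that passed for AM251/IDFP vs. IDFP was 1 in place of 0 with an offset of 50. For IDFP vs. DMSO it was 3 in place of 5 with no filter on dim probes, 2 with the replicate block, 0 at a threshold of 0.01 and 0 without IDFP 2, IDFP 3 and DMSO 3. For AM251/IDFP vs. DMSO it was 1 in place of 3 with no filter, 1 at a threshold of 0.01 and 1 without those 3 arrays. With only the 2 groups compared in the fit, the split changed: 4 higher and 0 lower in place of 3 and 2 for IDFP vs. DMSO, and 1 and 1 in place of 0 and 3 for AM251/IDFP vs. DMSO. Leaving out single arrays gave 0 in each case for AM251/IDFP vs. IDFP, 1 to 6 for IDFP vs. DMSO and 1 to 4 for AM251/IDFP vs. DMSO. The median difference moved by less than the SD between mice (0.0626) throughout: it was -0.1006 to -0.0401, 0.0556 to 0.1021 and -0.0254 to 0.0184 with single arrays left out. Of 5115 values of 165 results on 55 named genes, 4828 kept their side of the threshold and their direction if called, 259 lost a call, 28 gained one and 0 called values changed sign, while 116 values of genes not called changed sign.

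Replicate numbers were shared by the groups. Deviations from the group means of 16 pairs of 1 number had correlations between -0.192 and 0.263, with 5 above 0.1 and 5 best with their own number. Whether the numbers stand for a shared batch was not tested. With the numbers as a replicate block, 0 members passed for AM251/IDFP vs. IDFP, 2 for IDFP vs. DMSO (median 0.0537) and 3 for AM251/IDFP vs. DMSO. Atp5l, Ndufv1 and Uqcrc1 lost their calls for IDFP vs. DMSO with the block (adjusted p of Atp5l 0.0709), as did Bcs1l (0.0632) and Dlat (0.0571). Over all tested genes, calls for AM251/IDFP vs. IDFP were 525 with the replicate block and 442 at a threshold of 0.01, in place of 1011. For IDFP vs. DMSO they were 710 at a threshold of 0.01 and 881 without IDFP 2, IDFP 3 and DMSO 3, in place of 1522. For AM251/IDFP vs. DMSO they were 198 at a threshold of 0.01, 450 with only those 2 groups in the fit and 297 without the 3 arrays, in place of 923. The smallest counts with 1 array left out were 667 (without AM251/IDFP 3), 1049 (without DMSO 5) and 408 (without DMSO 3) in the same order of comparisons. Apart from the stricter threshold, the cause was not tested. Atp5k, with 5.51 to 77.6 units in DMSO-treated mice, and Cox6b2 lay partly below the detection limit.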
